A study of Mus musculus with 48 samples.

Results

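The comparison asked which changes in gene activity remained when Ezh2 was put back into Ezh2-knockout tumors of line 19568. It set 3 libraries of the knockout that also carried an Ezh2 overexpression vector (Ezh2 KO + Ezh2 OE, called the rescue here) against 3 Cas9 control libraries of the same line. These are 6 of the 48 libraries of the series. Members were chosen by the number in the deposited file of each library, within the one project of the line that held all 4 arms. The other arms, with 3 libraries each, carried the Ezh2 vector alone (Ezh2 OE) or the knockout alone (Ezh2 KO). A first set of the same line, 3 Cas9 and 3 Ezh2 KO libraries, served as an independent source of knockout-changed genes.

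All these groups share the genotype p53-/-;p18-/- (loss of Trp53 and Cdkn2c) and extra Myc, and they serve as a mouse model for the Group 3 form of medulloblastoma, a cancer of the cerebellum in children. Cells grown as floating tumorspheres received retroviral vectors, were sorted for red and green fluorescence, expanded, and placed in the cerebral cortex of CD-1 nu/nu mice, which lack T cells. The age of the mice and the driver of the vectors are not given in the labels. The model is limited to 1 tumor line, the tumors hold host cells of the cortex, and the labels do not say whether the 3 libraries of an arm came from separate mice. The p-values therefore measure the spread between these libraries, which may be technical in part.

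Ezh2 is the methyltransferase of PRC2, the Polycomb complex that marks genes for silencing by adding methyl groups to histone H3. In neural cells the complex keeps developmental regulators shut that belong to other tissues or body positions, and the clustered Hox genes, which give cells their place from head to tail, are among its best known targets. Once such a gene has been switched on, its silent state is not always restored when the enzyme returns.

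The titles of 2 libraries contradict their file numbers. The library titled Cas9 replicate 1 carries a file number of the rescue arm and is treated as rescue replicate 3, and the library titled rescue replicate 3 is treated as Cas9 replicate 1. They are called the crossed libraries, and results are given with and without both. Ezh2 RNA, which was not used to place them, was counted at 101, 91.2 and 101 CPM (normalised counts scaled to a common library size) in the Cas9 libraries 1 to 3. It stood at 2322, 2006 and 2183 CPM in the Ezh2 OE libraries, at 47.3, 49.4 and 51.3 in the Ezh2 KO libraries and at 5060, 6642 and 4999 in the rescue libraries. No rescue library overlapped another arm, and each crossed library lay with the arm of its file number. The rescue exceeded Cas9 by 5.83 ± 0.14 log2 units (SE, adjusted p = 2.64e-09) and Ezh2 OE by 1.36 log2 units (adjusted p = 5.16e-05), so that the total Ezh2 count was higher in the rescue than in the arm with the vector alone. A gene count does not tell vector from endogenous RNA and says nothing of the protein.

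Library totals on genes lay between 15542859 and 43642316 counts in the 12 libraries of the 4 arms. The chi-square of each of the 66 pairs was at least 9.9 per degree of freedom, so none was a repeat of another within counting error. Across genes, the log2 CPM of the rescue library with a Cas9 title correlated at 0.971 or more with the other rescue libraries and at 0.951 or less with Cas9 libraries, and that of the Cas9 library with a rescue title at 0.985 or more with Cas9 and 0.963 or less with the rescue.

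Many genes differed from Cas9 after Ezh2 was put back, counted here whether or not Ezh2 KO changed them. Of 17139 genes tested, 3809 (22.2%) were called in the rescue at an adjusted p under 0.05 in edgeR, 2218 (12.9%) higher and 1591 (9.28%) lower than Cas9. Of these, 972 were higher and 283 lower by more than 1 log2 unit. The rescue libraries lay all above the Cas9 libraries in 4078 genes (23.8%) and all below in 3779 (22%). Without both crossed libraries the count was 1375 of 17663 genes (7.78%), 907 higher (5.14%) and 468 lower (2.65%). It was 2087 without Cas9 replicate 1 and 2404 without Cas9 replicate 3, and with the arms as the titles give them edgeR called 0 genes, with 280 at an unadjusted p under 0.05.

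Few genes were called for the vector by itself. Ezh2 OE against Cas9 gave 2 called genes (0.0117%), both higher and 1 of them Ezh2, with 823 genes at an unadjusted p under 0.05. Set against Ezh2 OE, which carries the same vector, the rescue had 3640 called genes (21.2%), 2059 higher (12%) and 1581 lower (9.22%). Against Ezh2 KO it had 1220 (7.12%), 681 higher (3.97%) and 539 lower (3.14%). The count against Ezh2 KO depended on single libraries, at 308 without Ezh2 KO replicate 1, 354 without Ezh2 KO replicate 2, 443 without rescue replicate 3, 564 without rescue replicate 1, 742 without rescue replicate 2, 764 without Cas9 replicate 1 and 1989 without Ezh2 OE replicate 1, and it was 213 without both crossed libraries. The rescue libraries lay all between Cas9 and Ezh2 KO in 568 genes (3.31%).

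The knockout was compared with its control in a pair of comparisons without a library in common, one without the vector (Ezh2 KO against Cas9) and one with it (rescue against Ezh2 OE). The second pair of arms also differs in the Ezh2 level, by the 1.36 log2 units given above. The first called 2914 genes (17%), 1729 higher (10.1%) and 1185 lower (6.91%). Of its higher genes 1007 were also called higher in the second, which is 58.2% of the first list and 48.9% of the second, and 11 were called lower. Of its lower genes 511 were also called lower, 43.1% of the first list and 32.3% of the second, and 21 were called higher. Over all genes tested, the second comparison called 12% higher and 9.22% lower. All 12 libraries shared one estimate of the spread. The difference between the knockout effects, tested in the same fit, was called for 173 genes (1.01%), 99 higher with the vector (0.578%) and 74 lower (0.432%), and for 18 without both crossed libraries.

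The first set of line 19568 gave a list of 179 genes (1.08% of 16568 tested) changed by the knockout in other libraries. Of the 140 higher in that set, 139 were tested here and 105 (75.5%) were called higher in the rescue than in Cas9, with 2 called lower. In Ezh2 KO against the same Cas9 libraries 124 of the 139 (89.2%) were called higher. Their median log2 change was 1.39 in the rescue and 1.9 in Ezh2 KO against the same Cas9 libraries, 1.68 in the first set, and -0.0549 in Ezh2 OE, beside -0.00258 for all genes in the rescue. The rescue had 29 of them (20.9%) called lower than Ezh2 KO and 8 called higher, and against Ezh2 OE 106 (76.3%) were higher. Over all genes tested, 12.9% were called higher than Cas9 in the rescue and 10.1% in Ezh2 KO. The rescue had 3.14% of all genes called lower than Ezh2 KO, 3.97% higher than Ezh2 KO and 12% higher than Ezh2 OE.

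Of the 39 genes lower in the first set, 26 (66.7%) were called lower in the rescue and 0 higher. In Ezh2 KO 34 of the 39 (87.2%) were called lower. Their median log2 change was -0.975 in the rescue, -2.4 in Ezh2 KO and -2.58 in the first set. Called back up from Ezh2 KO were 11 of them (28.2%), among them the MHC class II genes H2-Ab1, H2-Eb1, H2-DMb1 and H2-DMb2. Over all genes tested, 9.28% were called lower than Cas9 in the rescue and 6.91% in Ezh2 KO. Called higher in the rescue than in Ezh2 KO were 3.97% of all genes. Without both crossed libraries 78 of 140 (55.7%) were still called higher and 20 of 39 (51.3%) lower in the rescue than in Cas9.

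**Figure D1:**
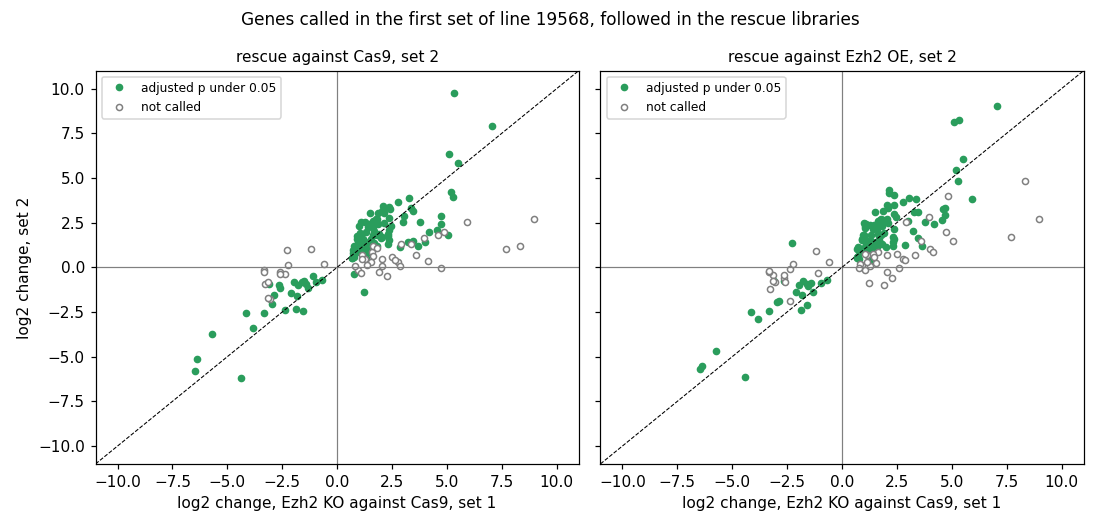
Each point is a gene called in the first set of line 19568; the x axis is its log2 change there (Ezh2 KO against Cas9), the y axis its log2 change in the rescue against Cas9 (left) or against Ezh2 OE (right), and filled points have an adjusted p under 0.05. Of 139 higher genes 105 are filled on the left, and genes such as Hoxa11 at 7.69 in the first set lie near the zero line of the rescue at 1.05 (the dashed line marks equal change).

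Part of the Hox genes stayed raised. Of 39 Hox genes, 32 were tested, and 13 were called higher and 0 lower in the rescue than in Cas9, beside 32 higher in Ezh2 KO. Over all genes tested, 12.9% were called higher in the rescue and 10.1% in Ezh2 KO. Most of the 32 Hox genes passed the filter on low counts through the knockout arm, where they are high: on the Cas9 and rescue libraries alone 5 passed, and all 5 were called. The called genes were 5 of 8 in HoxB, 5 of 7 in HoxD, 2 of 8 in HoxA and 1 of 9 in HoxC. Without both crossed libraries they were 5 of 8 in HoxB, 2 of 7 in HoxD, 2 of 10 in HoxA and 3 of 9 in HoxC, so the order of the clusters by calls depended on these libraries. The order by median log2 change in the rescue was another one, at 3.09 in HoxB, 2.54 in HoxC, 1.83 in HoxD and 1.69 in HoxA, and differences between clusters were not tested. The median log2 change of the 32 was 2.55 in the rescue and 5.40 in Ezh2 KO, or 2.46 and 5.40 with Hoxa6, which had 0 counts in Cas9, at its lower bound. The rescue was called below Ezh2 KO for 20 of them (3.14% of all genes) and above Ezh2 OE for 21 (12% of all genes). The count and median of these Hox genes in Ezh2 KO, and the count below it, were set in part by the filter. The count of all Hox genes called in the rescue was 12 without both crossed libraries, 7 without Cas9 replicate 1, 8 without Cas9 replicate 3, 8 without rescue replicate 1 and 7 without rescue replicate 2. It rose to 17, of 34 tested, without the crossed rescue replicate 3.

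Among the HoxB genes, Hoxb2 and Hoxb3 overlapped the knockout range in the rescue. Hoxb2, an anterior Hox gene of the hindbrain, was counted at 0, 0 and 0.111 CPM in Cas9, 4.15, 3.26 and 3.44 in Ezh2 KO and 2.81, 6.45 and 3.36 in the rescue. The rescue and knockout ranges overlapped, well above Cas9, with a log2 change of 6.34 ± 0.79 against Cas9 (adjusted p = 0.000375) and 0.22 against Ezh2 KO (adjusted p = 0.838). Its neighbour Hoxb3 was at 1.02, 2.21 and 0.862 CPM in the rescue, against at most 0.193 in Cas9 and 1.87, 2.31 and 1.91 in Ezh2 KO. The antisense transcript Hoxb3os stood at 1.87, 3.56 and 3.72 CPM in the rescue and 3.19, 3.01 and 2.99 in Ezh2 KO. The strand setting of the counter is not stated, so reads of Hoxb3 and Hoxb3os cannot be told apart with certainty.

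Other genes of the cluster lay lower: Hoxb4 lay between the arms in every rescue library, with means of 0.156 CPM in Cas9, 3.38 in Ezh2 KO and 1.02 in the rescue, and Hoxb5, at 0.0184, 1.01 and 0.173 CPM, was not called against Cas9 (adjusted p = 0.15).

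Hoxb13 and Hoxd8 lay between the arms, while Hoxd13 did not. Hoxb13, the most posterior HoxB gene, was counted at 10.8, 7.96 and 7.46 CPM in Ezh2 KO and 1.06, 1.58 and 0.499 in the rescue, with 1 read in all 3 Cas9 libraries together. The rescue level was 89.2 times the Cas9 level with a 95% counting interval of 15.6 to 3562, and 3.04 log2 units below Ezh2 KO (adjusted p = 0.00689). Hoxd8 was at 4.54, 5.2 and 4.92 CPM in Ezh2 KO and 1.02, 1 and 0.318 in the rescue, above the 0.11, 0.0638 and 0.0829 of Cas9 in each library. It differed from Cas9 by 3.10 ± 0.48 log2 units (adjusted p = 0.00131) and from Ezh2 KO by -2.63 (adjusted p = 0.00387). Hoxd13, singled out after its values were seen because it was already active in Cas9, was at 18.8, 5.87 and 10.8 CPM there, 43.1, 43.6 and 42.2 in Ezh2 KO and 37.8, 30.5 and 43.1 in the rescue. It was called above Cas9 (1.63 ± 0.31, adjusted p = 0.00388) and not called against Ezh2 KO (-0.21, adjusted p = 0.699). Some posterior HoxC genes were near Cas9 levels, with rescue means of 0.0422 CPM for Hoxc10, 0.0136 for Hoxc12 and 0.0598 for Hoxc13, against 2.08, 0.539 and 1.56 in Ezh2 KO, and none of these was called against Cas9. Posterior genes as a group were not reset: Hoxa10, Hoxb9, Hoxd10 and Hoxd11 were called above Cas9, while Hoxa9, Hoxa11, Hoxc9, Hoxc11 and Hoxd9 were not called. Against Cas9 the uncalled genes changed by 3.25 log2 units (Hoxc11), 2.55 (Hoxa9), 2.12 (Hoxc9), 1.78 (Hoxd9) and 1.05 (Hoxa11). A missing call does not show that a gene was back at the Cas9 level.

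HoxA and HoxC genes separated the rescue libraries from each other. Hoxa10, a posterior HoxA gene, was at 8.46, 8.78 and 8.16 CPM in Ezh2 KO and 1.83, 1.46 and 0.181 in the rescue. Hoxa11, the gene next to it, went from 5.95, 6.84 and 4.77 CPM in Ezh2 KO to 0.122, 0.43 and 0 in the rescue, where it overlapped Cas9 at 0.0736, 0 and 0.166. Its log2 change against Cas9 was 1.05 ± 1.10 (adjusted p = 0.532), and against Ezh2 KO -4.83 (adjusted p = 0.0142). Over the whole HoxC cluster the summed level was 6.4 and 4.97 CPM in rescue replicates 1 and 2 but 0.0465 in the crossed replicate 3, beside 27.3, 29 and 27.9 in Ezh2 KO and 0.259 to 0.816 in Cas9. HoxA gave 4.09, 4.32 and 0.186, while HoxB gave 7.78, 15.2 and 5.63. The third rescue library thus held HoxA and HoxC at Cas9 levels and HoxB above them. Of the 12 Hox genes named by the rule and called, 6 lost the call only with the arms as titled (Hoxa10, Hoxb2, Hoxb3, Hoxb9, Hoxb13 and Hoxd8). The other 6 (Hoxa6, Hoxb4, Hoxc6, Hoxd3, Hoxd10 and Hoxd11) also lost it under other alternatives. Hoxd13, which the rule did not name, lost its call only with the arms as titled.

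**Figure D2:**
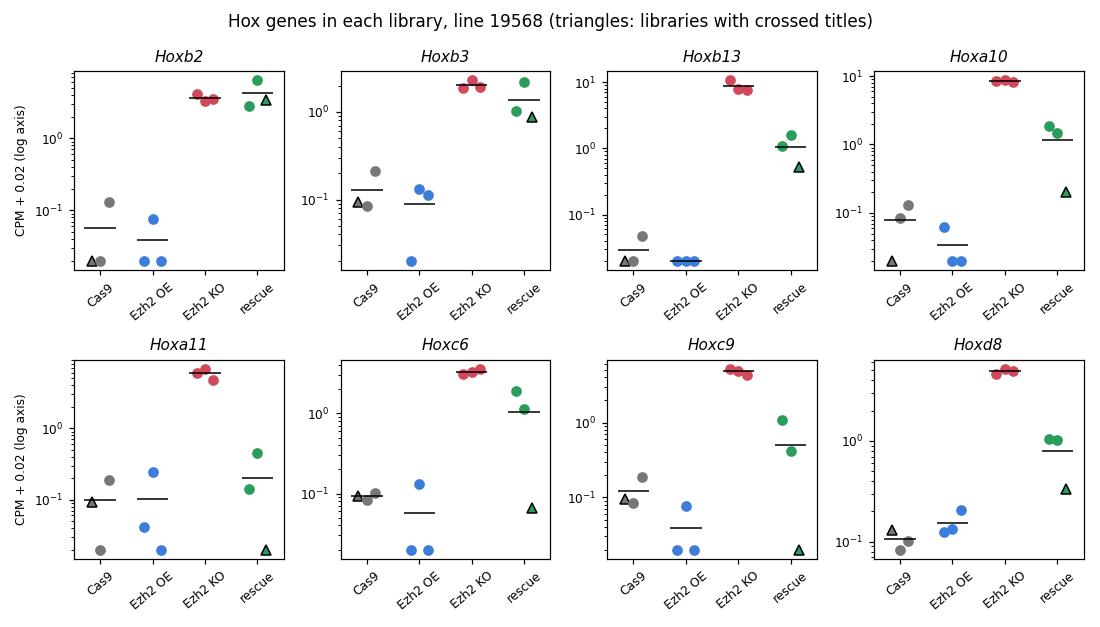
Normalised CPM (log axis, with 0.02 CPM added) of 8 Hox genes in each library of the 4 arms; points are libraries, triangles the crossed libraries, and lines the mean of the 3. Hoxb2 in the rescue sits at the knockout level, Hoxb13 and Hoxd8 lie between, and Hoxa11 overlaps Cas9.

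**Figure D3:**
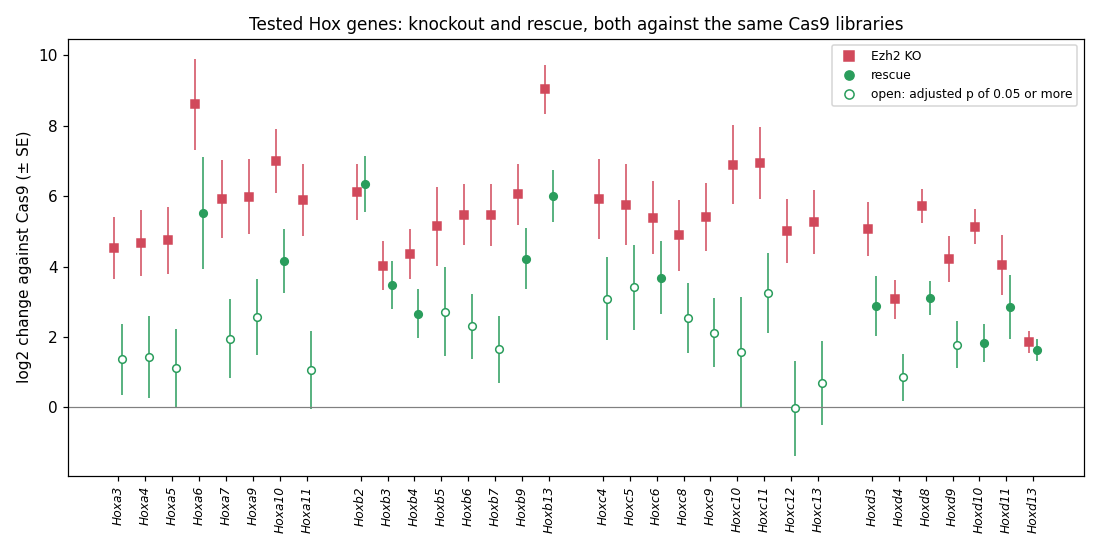
Log2 change against Cas9 (± SE) of the 32 tested Hox genes, by cluster and position, for Ezh2 KO (squares) and the rescue (circles), which share the Cas9 libraries; open symbols have an adjusted p of 0.05 or more. The 5 filled circles of HoxB include Hoxb2 at 6.34, beside 6.12 in Ezh2 KO, and HoxC has 1 filled circle.

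Promoter windows were read for genes that stayed changed (Hoxb3os, Olfr368, Cerkl), fell part of the way (Hoxd8) or came down (Hoxa11), because CG-rich start sites are the usual places of PRC2. Each is the 250 bases before the gene's start in RefSeq (GRCm38.p6, gene strand), with CG in capitals. The windows lie at chr11:96353395-96353644 (minus strand), chr2:37331499-37331748 (plus), chr2:79428989-79429238 (minus), chr2:74704365-74704614 (plus) and chr6:52245811-52246060 (minus).
Hoxb3os: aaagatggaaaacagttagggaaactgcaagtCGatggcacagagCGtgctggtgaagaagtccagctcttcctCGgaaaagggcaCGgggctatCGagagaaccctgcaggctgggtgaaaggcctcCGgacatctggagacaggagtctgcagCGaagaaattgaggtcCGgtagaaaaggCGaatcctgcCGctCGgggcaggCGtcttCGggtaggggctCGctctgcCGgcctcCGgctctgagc
Olfr368: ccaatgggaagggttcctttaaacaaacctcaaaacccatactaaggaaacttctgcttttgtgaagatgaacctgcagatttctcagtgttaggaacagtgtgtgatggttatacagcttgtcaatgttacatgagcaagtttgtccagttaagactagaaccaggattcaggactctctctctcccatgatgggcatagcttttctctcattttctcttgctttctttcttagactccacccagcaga
Cerkl: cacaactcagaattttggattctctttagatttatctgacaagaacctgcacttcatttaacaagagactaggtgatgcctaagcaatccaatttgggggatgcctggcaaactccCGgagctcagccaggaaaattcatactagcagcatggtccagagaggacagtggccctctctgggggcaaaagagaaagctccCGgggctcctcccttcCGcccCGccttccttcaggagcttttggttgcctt
Hoxd8: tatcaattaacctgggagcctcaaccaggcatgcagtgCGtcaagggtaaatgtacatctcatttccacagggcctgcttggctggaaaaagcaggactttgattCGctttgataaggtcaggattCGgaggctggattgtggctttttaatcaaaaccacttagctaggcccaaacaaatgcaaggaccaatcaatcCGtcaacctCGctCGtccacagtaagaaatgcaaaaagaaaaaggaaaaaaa
Hoxa11: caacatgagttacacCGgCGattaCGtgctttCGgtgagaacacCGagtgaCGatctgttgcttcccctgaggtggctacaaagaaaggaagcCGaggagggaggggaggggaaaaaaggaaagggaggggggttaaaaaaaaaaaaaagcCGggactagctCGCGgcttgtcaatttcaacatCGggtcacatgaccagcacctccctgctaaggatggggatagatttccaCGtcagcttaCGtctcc
The motif CG, which reads the same on both strands, occurred 16 times in the window of Hoxb3os, 13 in Hoxa11, 6 in Hoxd8, 4 in Cerkl and 0 in Olfr368, beside a median of 6 and quartiles of 2 and 16 over all 32851 windows, of which 37.8% held 10 or more. Over the windows of genes tested here the median was 15 with quartiles of 7 and 22, and 67.5% held 10 or more, so that Hoxb3os lay near that median and Hoxa11 a little below it. Olfr368, which stayed at 3.46, 3.61 and 4.13 CPM in the rescue against 3.12, 3.67 and 5.47 in Ezh2 KO, had none. The table holds windows for 62.3% of the tested genes, so a comparison of promoters between lists is void.

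Other developmental transcription factors stayed raised in part. The list holds lineage factors of many tissues, and Lhx9 and Zic2 are also in the list of granule neuron progenitors. Of 117 listed, 80 were tested, and 37 rose and 3 fell in the rescue, beside 43 and 2 in Ezh2 KO against the same Cas9 libraries. Without both crossed libraries it was 19 and 1 of 85. The median log2 change was 0.992 in the rescue and 1.28 in Ezh2 KO. Over all genes tested, 12.9% rose and 9.28% fell in the rescue, and 10.1% and 6.91% in Ezh2 KO. Some factors passed the filter on low counts through the knockout arm. Pitx1, for one, had means of 0.0337 CPM in Cas9, 4 in Ezh2 KO and 0.128 in the rescue. The count and median of the list in Ezh2 KO were therefore set in part by the filter. Nkx2-9, a homeobox gene of the ventral neural tube, was at 4.35, 7.11 and 2.18 CPM in the rescue, 7.69, 8.62 and 6.5 in Ezh2 KO and at most 0.221 in Cas9 (log2 change 4.72, adjusted p = 0.000332). Gata4, a factor of heart and endoderm, was at 2.24, 1.81 and 0.907 CPM in the rescue against 7.37, 7.38 and 6.1 in Ezh2 KO and 0.11, 0 and 0.111 in Cas9, so that all 3 rescue libraries lay between the other arms. Pax6, which is in the progenitor list and not among these, is active in cerebellar granule neuron progenitors and reached 26.6, 26 and 32.4 CPM against 21.2, 22.6 and 19.2 in Ezh2 KO and 2.83, 5.55 and 3.23 in Cas9.

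Among the genes named by the rule, the largest log2 rise was that of Tex13, a gene named for its activity in testis. It was counted at 11.8, 9.95 and 21.2 CPM in the rescue, 3.89, 2.72 and 2.31 in Ezh2 KO and with 1 read over the 3 Cas9 libraries. Every rescue library lay above every knockout library. The ratio to Cas9 was 1070 with a 95% counting interval of 191.6 to 42290, and the difference from Ezh2 KO was 2.26 log2 units (adjusted p = 0.0137). Tdrd9, a germ cell helicase that holds transposons silent, was at 4.03, 17.1 and 5.26 CPM in the rescue against 1.54, 1.73 and 1.18 in Ezh2 KO.

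The growth regulators Cdkn1c, Ccnd2 and Sfrp1 lay between Cas9 and the knockout in every rescue library. Cdkn1c, an imprinted inhibitor of cyclin-dependent kinases, was at 20.1, 25.7 and 8.79 CPM in Cas9, 453, 502 and 360 in Ezh2 KO and 213, 296 and 182 in the rescue. It rose by 3.68 ± 0.56 log2 units (adjusted p = 0.00117), and its difference from Ezh2 KO, -0.93, was not called (adjusted p = 0.273), although every rescue library lay below every knockout library. Ccnd2, the cyclin D2 gene, went from 89, 75.4 and 68.7 CPM in Cas9 to 509, 550 and 481 in Ezh2 KO and 283, 254 and 322 in the rescue. It was called in both directions, above Cas9 (1.88, adjusted p = 3.14e-05) and below Ezh2 KO (-0.84, adjusted p = 0.00703). Sfrp1, a secreted Wnt antagonist, fell from 54.9, 47 and 49.6 CPM in Ezh2 KO to 16.5, 20.1 and 17.3 in the rescue, still above the 2.17, 1.66 and 2.1 of Cas9 (3.16 ± 0.19, adjusted p = 8.42e-06).

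The oncofetal genes, active in embryonic growth and shut later, included 3 that lay between Cas9 and the knockout in every rescue library. Igf2bp1, an RNA-binding protein, was at 79.4, 84.8 and 96.2 CPM in the rescue against 109, 132 and 127 in Ezh2 KO and 11.2, 9 and 5.11 in Cas9. Its relative Igf2bp2 was at 13.4, 20.5 and 12.7 CPM against 49.5, 58.5 and 56.2 in Ezh2 KO and 6.95, 2.62 and 3.65 in Cas9. Only the second was called lower than in Ezh2 KO (-1.81, adjusted p = 0.00779, against -0.50, adjusted p = 0.446 for Igf2bp1); the difference between them was not tested. Hmga2, a chromatin protein, was also called lower than in Ezh2 KO, at 12, 17.7 and 18.7 CPM in the rescue and 46.5, 49 and 45.5 in Ezh2 KO. Lin28b, which blocks let-7 maturation, was not raised in Ezh2 KO: at 27.8, 26 and 29.9 CPM in Cas9 and 29, 31.8 and 29.1 in Ezh2 KO, it fell to 8.42, 10.5 and 10.6 in the rescue (-1.50 ± 0.12, adjusted p = 4.18e-05).

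Imprinted genes gave 11 called higher and 4 lower of 26 tested (10 and 2 in Ezh2 KO; 9 and 1 of 28 without both crossed libraries). Zim1, a zinc finger gene, was at 31.9, 46.8 and 54.4 CPM in the rescue, 14.7, 23.4 and 22.8 in Ezh2 KO and 2.65, 3.51 and 2.07 in Cas9. Plagl1, a transcription factor, rose to 88.2, 98 and 127 CPM from 25.6, 22.5 and 22.4 in Cas9, and was called above Ezh2 KO as well (0.67, adjusted p = 0.0143). Slc38a4, an amino acid transporter, went the other way, from 93, 109 and 106 CPM in Cas9 to 38.8, 31.1 and 23.4 in Ezh2 KO and 12, 19.1 and 3.4 in the rescue. Among 17 Wnt readouts and antagonists 10 rose and 0 fell (7 and 1 in Ezh2 KO; 4 and 0 without both crossed libraries). Of these Axin2, Lef1, Tcf7, Lgr5 and Nkd1 are known readouts of Wnt signalling, and Dkk2, Frzb and Wif1 are antagonists. Without both crossed libraries Tcf7, Dkk2 and Frzb kept the call. Axin2, Lef1, Lgr5, Nkd1 and Wif1 lost it, at adjusted p from 0.0909 for Wif1 to 0.205 for Lgr5. Against Ezh2 OE 5 of the 17 were called higher, with a median log2 change of 0.2.

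Several falls also persisted. Cerkl, a ceramide kinase-like gene of the retina, was at 30.3, 34 and 36.8 CPM in Cas9, 0.45, 0.289 and 0.427 in Ezh2 KO and 0.651, 0.315 and 0.454 in the rescue. The rescue and knockout libraries overlapped, with a log2 change of -6.18 ± 0.36 against Cas9 (adjusted p = 7.15e-06) and 0.22 against Ezh2 KO (adjusted p = 0.807). Sds, serine dehydratase of the liver, went from 9.38, 8.17 and 12.4 CPM in Cas9 to 0.122, 0.287 and 0.0907 in the rescue (-5.79, adjusted p = 0.000211). The cell adhesion gene Mpzl2 fell further than in the knockout, from 32.9, 22.1 and 32.1 CPM in Cas9 to 6.4, 5.73 and 5.42 in Ezh2 KO and 0.692, 1.69 and 0.59 in the rescue. Its difference from Ezh2 KO was called (-2.50, adjusted p = 0.00744). Tbx10, a T-box factor, stood at 3.42, 3.06 and 7.32 CPM in Cas9 and 0.244, 0.0573 and 0.0907 in the rescue (-5.15, adjusted p = 0.00945), but Ezh2 OE replicate 1 was also low at 0.232, beside 7.8 and 10.2, and the fall was not called without both crossed libraries.

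The MHC class II genes, whose products show antigen to helper T cells, came back toward Cas9. Of 10 tested, 8 fell in Ezh2 KO and 1 in the rescue, and 8 were called higher in the rescue than in Ezh2 KO, with the same counts of 8 without both crossed libraries, where 3 of 9 were called lower than Cas9. The median log2 change was -3.40 in Ezh2 KO and -0.189 in the rescue. H2-Aa, a class II chain, was at 239, 321 and 252 CPM in Cas9, 12.1, 10.5 and 13.3 in Ezh2 KO and 180, 185 and 298 in the rescue. Cd74, the invariant chain, was at 27.4, 24.1 and 26.6 CPM in Ezh2 KO and 193, 256 and 352 in the rescue, where it overlapped Cas9 at 206, 280 and 242. H2-DMb1, which helps load peptides, came back in part, to 74.6, 90 and 99.5 CPM from 26.1, 19.9 and 18.1, below the 158, 186 and 175 of Cas9 (-0.97 ± 0.17, adjusted p = 0.00216). The class II activator Ciita had means of 127 CPM in Cas9, 86.3 in Ezh2 KO and 132 in the rescue and was not called in any of the 3 comparisons among them. Of 31 interferon and MHC class I genes 0 were called by edgeR in the rescue, with 3 at an unadjusted p under 0.05 (2 were called by DESeq2 and 0 by limma-voom), and 3 fell in Ezh2 KO.

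**Figure D4:**
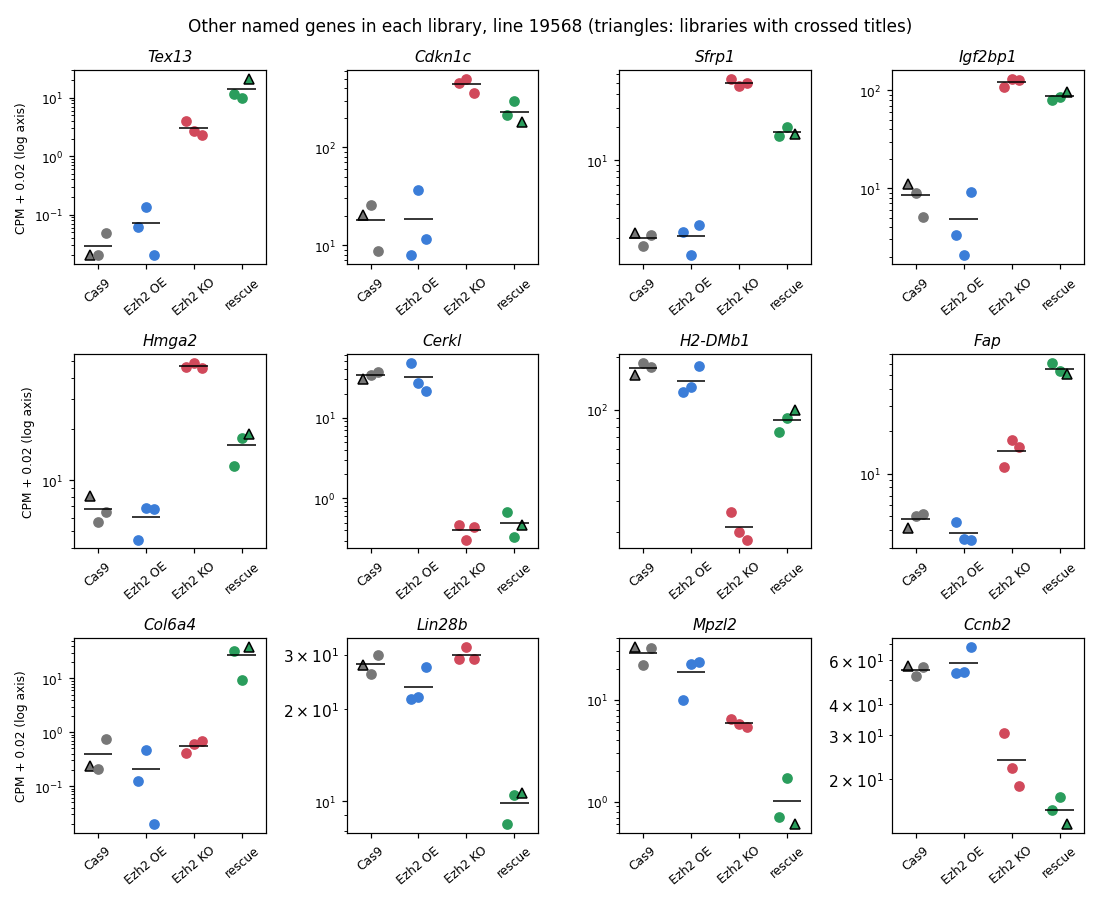
Normalised CPM (log axes with differing ranges, 0.02 CPM added) of 12 genes in each library of the 4 arms; points are libraries, triangles the crossed libraries, lines the mean of the 3. Cerkl stays at the knockout level in the rescue, H2-DMb1 rises to 74.6 or more, Sfrp1 lies between, and Fap, Col6a4 and Lin28b leave the range of both Cas9 and Ezh2 KO.

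Some genes moved in the rescue beyond either Cas9 or the knockout. Fap, a cell surface protease of activated fibroblasts, was at 4.08, 4.98 and 5.17 CPM in Cas9, 11, 17.3 and 15.3 in Ezh2 KO and 60.9, 53.5 and 50.4 in the rescue. It was called above Ezh2 KO by 1.92 log2 units (adjusted p = 0.000246). Col6a4, a collagen VI chain, was at 32.2, 9.43 and 38.4 CPM in the rescue and at most 0.718 in Cas9 and Ezh2 KO (6.01 ± 0.82 against Cas9, adjusted p = 0.000646). Of 29 mesenchymal and matrix genes 16 rose and 3 fell against Cas9, with 11 and 2 in Ezh2 KO, and without both crossed libraries it was 12 and 0. Col5a2, a fibrillar collagen, reached 260, 202 and 247 CPM from 28.6, 26.6 and 31.1 in Cas9, beside 110, 110 and 119 in Ezh2 KO. The median log2 change of the list was 0.928 in the rescue and 0.408 in Ezh2 KO. The endothelial list moved alongside, with 5 of 10 genes higher in the rescue (2 of 10 without both crossed libraries) and a summed level of 138 to 161 CPM against 64.4 to 87.7 in Cas9; Cdh5, the endothelial cadherin, was at 44.9, 48.8 and 38.7 against 15, 12.7 and 12.8. Summed markers of oligodendrocyte precursors were at 540 to 598 CPM in the rescue, 295 to 352 in Cas9 and 337 to 432 in Ezh2 KO. Of the 5 genes, 2 were called higher than Cas9 (Pdgfra and Cspg4), and the list as a whole did not rise. Its median log2 change was 0.096, and in 1 gene the rescue libraries lay all below Cas9. Those of pericytes and smooth muscle were at 395 to 491 CPM, against 289 to 312 in Cas9 and 391 to 442 in Ezh2 KO, with 2 of 9 called higher (Cspg4 again, and Abcc9). Lymphocyte markers summed to 9.8 to 13.4 CPM, against 3.18 to 4.28 in Cas9 and 5.7 to 7.37 in Ezh2 KO, with 1 of 5 called, the B cell gene Cd79a. In these 3 lists and the endothelial one the summed levels of the rescue libraries lay all above those of Cas9. Without both crossed libraries 1 gene of each of the 3 was called higher. Over all genes tested 12.9% were called higher in the rescue and 9.28% lower. The 3 falls in the matrix list were near that share, and the calls in these 3 short lists rest on few genes. These counts are not read as results about the lists. The part of these cell types in the matrix result was not tested. In whole tumors, more cells of a type and more RNA per cell cannot be told apart.

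Part of the cell cycle and Myc target lists was lower in the rescue. Of 30 cell cycle genes 15 fell and 0 rose against Cas9 (median log2 change -0.313), beside 4 falls and 2 rises in Ezh2 KO against the same libraries (median -0.0716). Of 25 Myc targets, mostly ribosome and nucleolar genes, 16 fell and 0 rose (median -0.446; 2 and 1 in Ezh2 KO), and 8 of the 25 were called below Ezh2 KO. These changes were small, and without both crossed libraries 4 and 7 genes were called. The cyclin gene Ccnb2 had the largest cell cycle change, from 57, 51.7 and 56.3 CPM in Cas9 to 14.9, 16.9 and 13.2 in the rescue, with 30.5, 22 and 18.6 in Ezh2 KO. Tfrc, the transferrin receptor, fell from 435, 458 and 422 CPM to 247, 251 and 236 (-0.84, adjusted p = 0.00115). Of 16 Atf4 targets, genes of amino acid supply, 9 fell (4 without both crossed libraries; 3 fell and 1 rose in Ezh2 KO), among them Aldh1l2, a mitochondrial folate enzyme, from 44.7, 73.3 and 47.1 CPM to 13.8, 20.9 and 13.1. Myc itself was at 221, 208 and 249 CPM in Cas9 and 189, 365 and 169 in the rescue (0.09, adjusted p = 0.829), with overlapping ranges.

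**Figure D5:**
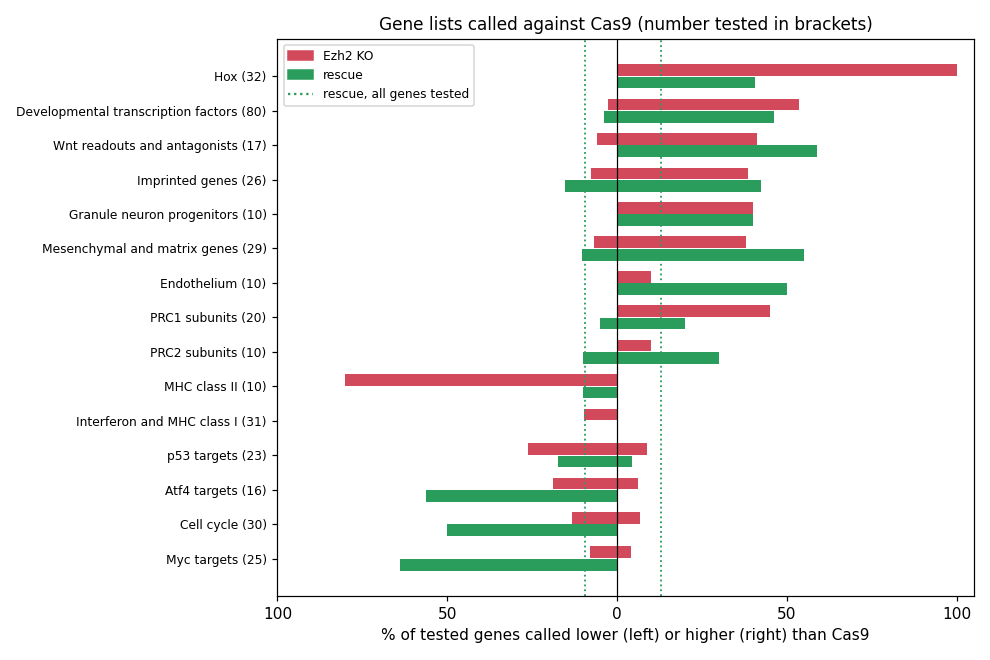
Share of the tested genes of each list called lower (left) or higher (right) than Cas9 in Ezh2 KO and in the rescue, which share the Cas9 libraries; dotted lines mark the shares over all genes in the rescue, 9.28% lower and 12.9% higher. MHC class II genes are lower in Ezh2 KO (8 of 10) but not in the rescue (1 of 10), while Myc targets are lower in the rescue (16 of 25).

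Among the subunits of PRC2 the changes in the rescue were small. Of 10 tested besides Ezh2, Ezh1, the related enzyme, rose from 30.6, 28.1 and 30.1 CPM to 41.7, 37.2 and 43.9 in the rescue (0.46, adjusted p = 0.0079), the accessory subunits Jarid2 and Phf1 also rose, and Eed, a core subunit, fell from 57.8, 58.5 and 60.4 CPM to 45.2, 43 and 49. Only Eed was also called without both crossed libraries. Of 20 PRC1 subunits 4 rose and 1 fell, with 9 rises in Ezh2 KO; without both crossed libraries 0 rose and 1 fell. Gfi1, the repressor named in the study's title, was at 0.147, 0.128 and 0.553 CPM in Cas9, 0.643, 0.701 and 0.627 in Ezh2 KO and 0.814, 0.516 and 0.454 in the rescue. Its libraries overlapped and it was not called (0.99 ± 0.51, adjusted p = 0.19). Trp53, whose RNA was counted at 39.6 to 51.2 CPM in Cas9 despite the genotype (0.01, adjusted p = 0.983), Cdkn2a (0.25, adjusted p = 0.105) and Cdkn2c (-0.22, adjusted p = 0.324) were not called, and Gfi1b was not tested. Cdkn2b, the neighbour of Cdkn2a and a kinase inhibitor, rose from 2.43, 2.3 and 1.8 CPM to 9.68, 11.2 and 10.8, above the 3.54, 4.25 and 3.59 of Ezh2 KO. Of 23 p53 targets 1 rose and 4 fell. Over all genes tested 22.2% were called in the rescue, 12.9% higher and 9.28% lower. The rescue counts of PRC1 subunits and p53 targets are therefore not read as results about these lists.

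Some markers of host cells varied between libraries of one arm. The largest falls included a cortical neuron marker. Slc17a7, the vesicular glutamate transporter, was at 19.1, 25 and 2.15 CPM in Cas9, 17, 0.848 and 1.14 in Ezh2 OE, 0.29, 1.69 and 18.2 in Ezh2 KO and 0.366, 0.43 and 0.136 in the rescue. The neuronal gene Neurod2 and Cabp7, Cpne6, C1ql2 and Cdh9, which are in none of the marker lists, showed the same kind of spread, and none of these 6 falls was called without both crossed libraries. Of 8 cortical neuron genes tested 1 rose and 1 fell, and their summed level was 30.7 to 134 CPM in Cas9 and 24.7 to 46.2 in the rescue. Ttr, the choroid plexus transport protein, was at 179 CPM in rescue replicate 2 and 0.326 and 0.408 in the others, so its rise rests on that library. Oligodendrocyte markers summed to 93.4 to 188 CPM in Cas9 and 32.4 to 219 in the rescue, and microglial markers to 221 to 303 and 231 to 378, with 0 of 9 genes (0 at an unadjusted p under 0.05, and 0 called by DESeq2 and limma-voom) and 1 of 15 called in edgeR. The microglial call was Tmem119, at 42.4, 54.1 and 68.6 CPM against 6.33, 12 and 6.93 in Cas9 and 36.9, 38.5 and 33.5 in Ezh2 KO.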

How the data were processed

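RNA was measured in 12 libraries of line 19568 in 4 arms of 3 and in 6 libraries of the same line from a first set; 18 libraries from other groups and 12 from other lines of the first set were used for an alternative or not at all. The authors deposited raw read counts per gene symbol, one table per library; per the submitters' processing notes HTSeq, STAR, BWA, CASAVA 1.7, R 3.2.3 and limma were named with build mm9, without roles. Libraries were stranded per the labels' protocols; the annotation and the strand setting of the counter are not given in the sources used here. Reads outside genes made up 26.1% to 40.3% of the counted lines, ambiguous reads 0.923% to 1.98% and unaligned reads 6.77% to 10.4%; these lines were left out. Reads carry no molecular identifiers, so intervals and floors hold for counting error alone.

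Arms followed the file numbers. Counts were fitted in edgeR 4.0.16 (R 4.3.3; TMM, filterByExpr, 4 group means, 8 residual degrees of freedom, quasi-likelihood F-tests, Benjamini-Hochberg over all tested genes). Every adjusted p is from such a fit; called means under 0.05. CPM of single genes are normalised, and log2 changes carry the model's SE. Summed levels of lists are CPM by the library total, without TMM factors, and include listed genes that were not tested. Against 0 counts a fold is a bound from a floor of 3 counts over the arm. The first set was fitted alone (6 libraries, 4 residual degrees of freedom). On simulated counts of 16905 genes for the rescue against Cas9, 40 of 50 genes raised 4-fold and 24 of 50 raised 2-fold were recovered, with 6 false calls among 131. Of genes lowered 4-fold 36 of 50 were recovered, and of those lowered 2-fold 25 of 50. The simulation changed few genes and drew the libraries independently around a common mean. It therefore checks the code and does not give error rates for these data.

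The members, the gene lists and the tests were chosen with earlier results of these data known. Genes were named by a rule: Myc, Ezh2, Gfi1b, Gfi1, Cdkn2a, Cdkn2c and Trp53; the called genes with the 12 largest rises and 12 largest falls that had 1 CPM or more on average in the higher arm, an assigned symbol and no overlap; up to 4 called members of each list; up to 4 members of each Hox cluster and of the developmental factors by their change in the first set; and the 8 lowest p-values against Ezh2 OE. Hoxd13, H2-Aa, Cd74, Ciita, the other class II genes and other Wnt genes fall outside it and were picked with their values known. The alternatives were run for them too. Alternatives were both crossed libraries left out, arms as titled, only the 2 arms compared, RLE factors, DESeq2 1.42.0, limma-voom (limma 3.58.1), no filter, at least 1 CPM in 3 libraries, each library left out, and a replicate block. The test of the difference between knockout effects with and without the vector, the counts per list without the crossed libraries and the share followed against Ezh2 OE were added after seeing the data. Promoters are from RefSeq (GRCm38.p6), which is not the build of the files.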

Additional observations from a re-analysis of the deposited data

Results flagged for a closer look

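The knockout's effect was measured without the vector (Ezh2 KO minus Cas9) and with it (rescue minus Ezh2 OE), and the difference of the effects was tested in the same edgeR fit of 12 libraries. It was called for 173 genes (1.01%), 99 higher (0.578%) and 74 lower (0.432%) with the vector, and for 18 (0.102%) without both crossed libraries. Of 10 MHC class II genes 8 were called higher. The named genes that passed had log2 differences of the effect (with the vector minus without) of 2.35 for Ezh2, the vector's own gene, 2.27 for H2-DMb1, 2.23 for Fap, -1.36 for Lin28b, 0.82 for Tspan11, -1.56 for Sfrp1, 7.05 for Col6a4, 1.19 for Cdh5, -3.64 for Hoxd10 and -3.22 for Hoxd8. Without both crossed libraries 3 of these 10 were called (Ezh2, H2-DMb1 and Fap) and the other 7 were not, at adjusted p from 0.0563 for Lin28b to 0.248 for Hoxd10. The total Ezh2 level also differed between the arms with the vector, so that a difference in level and a difference in the knockout's effect cannot be told apart. With 3 libraries an arm, single libraries were not screened for standing apart.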

How the results depend on the processing

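The arms of the 2 crossed libraries decided most. With the arms as titled, the genes called were 0 against Cas9, 0 Hox genes, 0 against Ezh2 OE, 69 against Ezh2 KO and 0 of the first set's list, and 12 named genes changed sign without being called (Bgn -0.0778, Cabp7 0.023, Igfbp2 0.052, Lef1 -0.14, Lgr5 -0.30, Lhx9 -0.016, Phf1 -0.00702, Podnl1 -0.31, Postn -0.14, Scmh1 -0.00307, Shox2 -0.81, Slc7a11 0.079). Without both, the counts were 1375, 2020 and 213 against Cas9, Ezh2 OE and Ezh2 KO. With only the 2 arms compared, 5 Hox genes (5 tested) and 1649 genes against Ezh2 OE were called. DESeq2 called 2279 against Ezh2 KO and limma-voom 8 Hox genes. The cause was not tested.

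Leaving out each library in turn gave 2087 to 4611 genes against Cas9, 7 to 17 Hox genes, 2532 to 4164 against Ezh2 OE, 308 to 1989 against Ezh2 KO and 112 to 136 of the first set's genes. A list drawn from 18 libraries of 3 lines held 5 genes, of which 4 were followed, beside 131 of 179. Same-numbered Cas9 and rescue libraries deviated together at r of -0.0308 to 0.329, and differently numbered ones at -0.289 to 0.206. So few pairs cannot settle whether the replicate numbers pair the libraries, and the main fit used no pairing. With a replicate block the counts were 8 Hox genes, 755 against Ezh2 KO and 3334 against Cas9. Of 136 named genes called, 75 lost the call at most with the arms as titled, and 83 kept it without both crossed libraries. The depth limits genes near 0 in Cas9, whose folds rest on a few reads.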
